A study of Mus musculus with 24 samples.

Results

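Chromatin accessibility was followed at the distal end of mouse chromosome 19, in germinal center (GC) B cells of mice that carried Kmt2d loss, Crebbp loss, both or neither. The region was taken as every consensus peak of the assay for transposase-accessible chromatin with sequencing (ATAC-seq) on chromosome 19 that starts beyond 55 Mb. It held 237 of the 65483 peaks of the table and of the 2239 peaks on chromosome 19, and all 237 passed the filter on low counts. The region was chosen by the K and CK values at single peaks in Ablim1 and near Vti1a and Zfp950, which had changed in K mice but not in CK mice. CK mice carry the same Kmt2d allele as K mice. For the contrasts of K and CK, values and counts of calls are therefore given as a description that supports nothing, and C against WT was the 1 contrast that the choice did not use.

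The 17 libraries each came from the spleen of 1 mouse, with 4 Cg1Cre+/- mice (WT), 4 Cg1Cre+/-, Crebbp fl/+ mice (C), 4 Cg1Cre+/-, Kmt2d fl/+ mice (K) and 5 Cg1Cre+/-, Crebbp fl/+, Kmt2d fl/+ mice (CK). All carried the Cre driven from the Cg1 locus, which acts in B cells that have been activated, all were described as 8 weeks old on a C57BL/6J background, and all had received sheep red blood cells (SRBC) 10 days before CD38-FAS+ GC B cells were sorted. The floxed alleles are heterozygous, so that 1 copy of each gene remained, and deletion in each sorted sample was not checked here. Each library placed between 17483706 and 21857738 fragments in peaks, and values are given as CPM, fragments of a peak scaled to a common library size after TMM correction for library composition. Peaks within 1 kb of a transcription start site (TSS) were present for 10 of 10 GC B cell marker genes, with summed levels of 650 to 782 CPM over all mice. The T cell genes Cd3e, Cd3g, Cd4 and Cd8a and the myeloid genes Lyz2 and Itgam had no such peak. The 3 remaining myeloid genes together held 7.27 to 10.3 CPM, the 3 plasma cell genes 155 to 176 CPM, the 2 erythroid genes with a peak 46.3 to 56.2 CPM, and the T cell genes Cd2 and Lck 113 to 151 CPM. This last sum was 132 to 151 CPM in WT, 124 to 143 in C, 121 to 141 in K and 113 to 128 in CK. It did not overlap between WT and CK, and 13% of all single peaks did not either. The mean at Cd2 was 114 CPM in WT and 94.8 CPM in CK, while that at Lck was 27.6 CPM in WT and 28.8 CPM in CK. The part of other cell types in the results was not tested.

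The study described these mice as female, but 9 libraries held fragments in 11 Y chromosome peaks (between 1421 and 1742 each) and the other 8 held at most 1. Those with Y signal were WT mice 1 and 2, C mice 1 and 2, K mice 1, 3 and 4, and CK mice 1 and 4. K mouse 2 was thus the 1 K mouse without Y signal, and the main K results below are given by mouse.

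KMT2D is a methyltransferase that places the first methyl groups on histone H3 lysine 4 at enhancers, and CREBBP is an acetyltransferase that acts at many of the same elements. In GC B cells both support enhancers through which the cells leave the GC reaction, and both genes are recurrently mutated in lymphoma. An ATAC-seq peak marks DNA that is open to the transposase, usually an active or poised promoter or enhancer. Its height is not a measure of how much RNA a neighbouring gene makes.

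The region runs from 55060910 to 61331071 on chromosome 19 (GRCm38, the build also named mm10), to within the last part of a chromosome of 61431566 bp, and 52 protein-coding genes start in it. The 2 last peaks before the boundary started at 54114783 and 54277443, with K against WT log2 fold changes of 0.29 and -1.54. The 2 first peaks inside it started at 55060910 and 55098247, with 0.08 and 0.34. Of the 237 peaks, 42 lay over a TSS, 26 over another exon, 108 in an intron and 61 between genes. They were about as long and as GC-rich as other peaks, with a median length of 846 bp (910 bp over all peaks) and a median GC content of 48.0% (48.2%), and their median level in WT was 2.96 CPM (4.34 CPM).

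The 300 bases around the centre of 4 peaks are shown, since the results turn on them: the 3 peaks that set the choice of region and a peak in a gene desert. Sequences were read from the RefSeq GRCm38 assembly, and capitals mark letters that match a short motif.
Ablim1 intron peak (chr19:57112857-57113156, plus strand): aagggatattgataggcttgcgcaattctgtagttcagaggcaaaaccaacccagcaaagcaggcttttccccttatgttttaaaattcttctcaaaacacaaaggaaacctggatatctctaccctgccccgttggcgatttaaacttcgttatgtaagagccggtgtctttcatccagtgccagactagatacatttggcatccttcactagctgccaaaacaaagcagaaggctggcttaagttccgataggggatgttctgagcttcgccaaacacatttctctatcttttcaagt
Vti1a intron peak (chr19:55484026-55484325, plus strand): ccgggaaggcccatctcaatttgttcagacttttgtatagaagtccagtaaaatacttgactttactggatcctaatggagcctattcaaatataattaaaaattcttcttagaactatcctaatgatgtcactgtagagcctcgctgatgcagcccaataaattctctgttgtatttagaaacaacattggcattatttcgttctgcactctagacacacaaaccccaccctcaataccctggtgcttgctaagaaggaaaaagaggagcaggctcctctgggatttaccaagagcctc
Peak upstream of Zfp950 (chr19:61151887-61152186, plus strand): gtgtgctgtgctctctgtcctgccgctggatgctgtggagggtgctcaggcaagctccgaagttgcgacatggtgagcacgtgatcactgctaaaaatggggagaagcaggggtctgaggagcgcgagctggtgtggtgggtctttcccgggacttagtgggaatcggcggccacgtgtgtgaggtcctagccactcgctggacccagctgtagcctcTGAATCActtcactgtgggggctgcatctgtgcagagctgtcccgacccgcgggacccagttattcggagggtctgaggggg
Gene desert peak (chr19:59579609-59579908, plus strand): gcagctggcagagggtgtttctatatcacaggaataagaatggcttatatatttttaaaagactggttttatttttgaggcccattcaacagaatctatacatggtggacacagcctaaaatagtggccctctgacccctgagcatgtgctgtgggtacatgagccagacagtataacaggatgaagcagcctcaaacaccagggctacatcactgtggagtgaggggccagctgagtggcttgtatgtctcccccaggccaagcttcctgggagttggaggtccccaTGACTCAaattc
The motifs were ATGCAAAT (octamer), GGAAGT (ETS), TGANTCA (AP-1) and TGTGGTT (RUNX), searched on both strands. The capitals in the windows upstream of Zfp950 and in the gene desert are the AP-1 letters, at positions 219 and 289 from the first base, and the Ablim1 and Vti1a windows held none of the 4. Of 65481 windows of this length over all peaks, 8.93% held the AP-1 letters, 4.17% the octamer, 26.3% ETS and 8.46% RUNX. In the region the shares were 10.1%, 4.64%, 24.9% and 8.86%.

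The Ablim1 peak lost nearly all of its signal in K and kept it in CK. Ablim1 encodes an actin-binding LIM protein of the cytoskeleton and is transcribed from the minus strand, and the peak (chr19:57112611-57113403) lies in an intron, 5510 bp from the nearest TSS of the gene. It held 7.2, 7.2, 7.7 and 4.2 CPM in the WT mice, 11.4, 11.6, 8.6 and 9.0 CPM in C, 0.2, 0.0, 0.3 and 0.3 CPM in K, and 10.9, 12.9, 10.9, 5.3 and 4.8 CPM in CK. All 4 K mice, with and without Y signal, were below every other mouse, and K mouse 2 had 0 fragments there. The log2 fold change of K against WT was -4.87 with a standard error (SE) of 0.43, that of CK against WT 0.44 (SE 0.23), and that of CK against K 5.32 (SE 0.41). The CK mice fell on both sides, with 3 above the WT mice and 2 inside their range. WT mouse 4 was the lowest of WT, at 4.2 CPM.

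An adjacent Ablim1 intron peak carried much of the opposite pattern. This peak (chr19:57103843-57106071), at a lower position in the same gene, was the member of the region most like it across the 17 libraries, with a Pearson r of -0.82. It held 9.2, 5.0, 4.4 and 9.5 CPM in WT, 5.1, 4.5, 4.1 and 4.9 CPM in C, 14.6, 20.05, 13.7 and 10.8 CPM in K, and 2.5, 2.8, 3.4, 11.6 and 10.4 CPM in CK. All K mice were above all WT mice, and CK mice 4 and 5, which had the lowest CK values at the first peak, had the highest here. Its K against WT log2 fold change was 1.08 (SE 0.33). Of the 20 peaks of the table with the largest absolute r to the Ablim1 peak, it was the 1 that lay in the region, and r among these 20 ran from 0.82 to 0.91 in size. These r are a description over 17 libraries of 4 genotypes, in which 4 K mice near 0 set most of the range.

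The Vti1a peak appeared in the K mice with Y signal and in no other mouse. Vti1a encodes a SNARE protein of vesicle transport in the Golgi and endosomes, and the peak (chr19:55483700-55484652) lies in an intron of it. The WT mice held 3, 2, 6 and 2 fragments, the C mice 2, 4, 2 and 4, the K mice 98, 0, 106 and 112, and the CK mice 5, 2, 5, 5 and 5. In CPM, K mice 1, 3 and 4 stood at 5.2, 5.5 and 5.2, while K mouse 2 was at 0.0 and all WT, C and CK mice were at 0.3 or less. The log2 fold change was 4.53 (SE 0.65) for K against WT and -4.12 (SE 0.57) for CK against K. Because K mouse 2 had no fragment, the K mean of 3.98 ± 2.7 CPM (SD, n = 4) describes none of the 4 mice.

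The peak upstream of Zfp950, a zinc finger gene, was lower by nearly the same amount in the same 3 mice. It lies between genes (chr19:61151397-61152678), 10557 bp from the nearest TSS of the gene. It held 44.0, 45.9, 44.5 and 45.6 CPM in WT, 41.7, 43.2, 44.6 and 47.9 CPM in C, 22.8, 40.9, 23.4 and 24.9 CPM in K, and 48.5, 45.0, 46.0, 44.8 and 45.3 CPM in CK. K mice 1, 3 and 4 were far below the other 14 mice, and K mouse 2 was just below them. The log2 fold change was -0.69 (SE 0.11) for K against WT, 0.03 (SE 0.10) for CK against WT and 0.72 (SE 0.10) for CK against K. The Zfp950 promoter peak itself held 40.03 ± 4.3 CPM in WT and 41.7 ± 1.2 CPM in K (SD, n = 4 each).

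**Figure D1:**
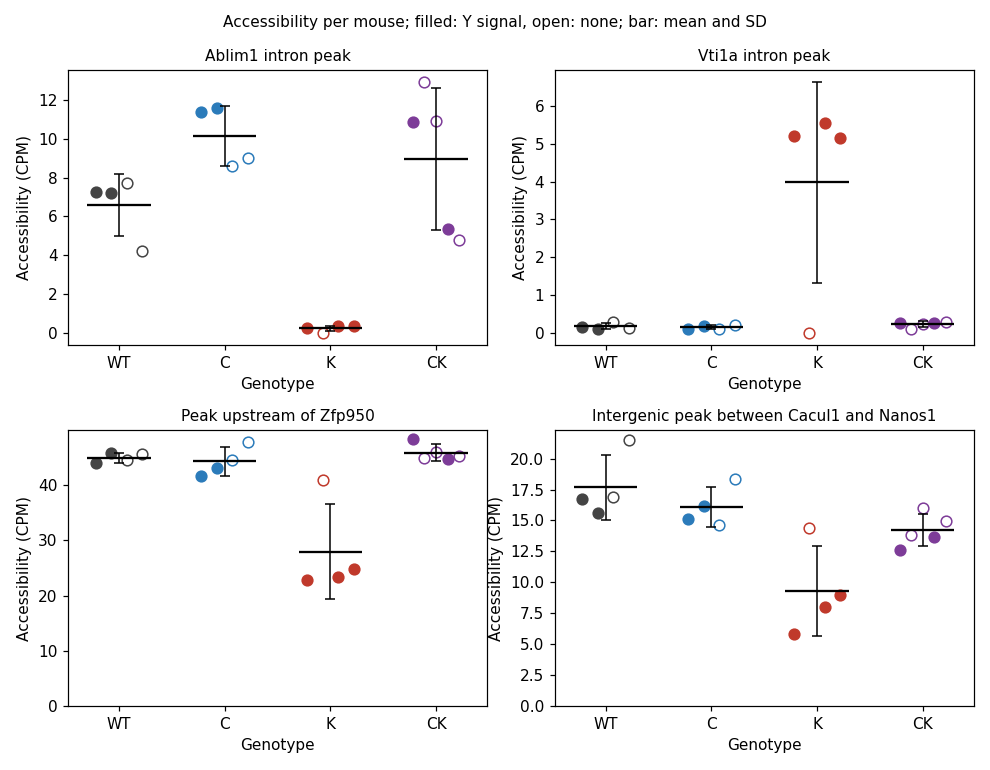
Accessibility in CPM (vertical axes) of each mouse by genotype (horizontal axes) at 4 peaks, with filled points for libraries with Y signal, open points for those without, and bars for the mean and SD. At the Ablim1 peak all 4 K mice sit between 0.0 and 0.3 CPM, while at the other 3 peaks K mice 1, 3 and 4 stand away from all other mice and K mouse 2 (open) lies near the rest.

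Across the region, 10 of 237 peaks were called in K against WT at an adjusted p under 0.01 (edgeR quasi-likelihood test, Benjamini-Hochberg over all peaks), 3 higher and 7 lower. Of all peaks, 1.48% were called (0.647% higher and 0.828% lower), and of the other 2002 peaks of chromosome 19, 28 were. In CK against WT 8 were called, 5 higher and 3 lower, against 6.84% of all peaks (3.54% higher and 3.3% lower). In CK against K 3 were called, which were the Ablim1, Vti1a and Zfp950 peaks, 2 higher and 1 lower, against 0.00916% of all peaks (0.00458% in each direction), or 6 peaks of the genome. These counts come from the contrasts by which the region was picked, so nothing is read from them. The median log2 fold change over the region was -0.04 in K, 0.05 in CK and 0.00 in C, and over all peaks it was 0.00 in each. An absolute log2 fold change over 0.5 was present at 16% of the peaks in K (8.66% of all peaks) and at 8.86% in CK (11.6%).

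Of the other peaks called lower in K, some repeated the pattern of the Zfp950 peak and some did not. The largest fold was at a gene desert peak (chr19:59579318-59580201), 38867 bp from the nearest annotated TSS, that of a pseudogene. Its levels were 1.6, 1.9, 1.9 and 2.9 CPM in WT and 0.4, 1.4, 0.5 and 0.6 CPM in K, while C held 1.7 to 2.1 CPM and CK 0.9 to 2.2 CPM. K mice 1, 3 and 4 were below all other mice, and K mouse 2 was below WT but inside the CK range, for a log2 fold change of -1.59 (SE 0.30).

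The peak at chr19:60684066-60685368, between genes and 70619 bp from the TSS of Nanos1, which encodes a translational repressor, was next. It held 16.7, 15.6, 16.9 and 21.5 CPM in WT, 15.2, 16.2, 14.7 and 18.3 CPM in C, 5.8, 14.4, 8.0 and 9.0 CPM in K, and 12.6, 13.8, 16, 13.6 and 14.9 CPM in CK. Again K mouse 2 lay with the CK mice and the other 3 K mice below them, and the log2 fold change was -0.93 (SE 0.16). This peak closes a run of 5 peaks from 60662561 to 60685368, of which the last 4 had K mice 1, 3 and 4 below all other mice.

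A peak at chr19:57355290-57356399, 4281 bp from the TSS of Fam160b1, held 22.1, 22.2, 20.9 and 22.5 CPM in WT, 13.8, 21.7, 11.5 and 12.7 CPM in K, and between 19.5 and 23.04 CPM in C and CK. K mouse 2 lay inside the WT range and the other 3 K mice were below all other mice (log2 fold change -0.56, SE 0.12). The intergenic peak at chr19:60182131-60183847 held 16.2, 14.3, 15.8 and 18.5 CPM in WT, and 9.2, 12.2, 10.7 and 12.2 CPM in K (log2 fold change -0.54, SE 0.10). All 4 K mice were below all others there, and K mouse 2 was level with K mouse 4. At an intron peak of Hspa12a, a member of the heat shock protein family (chr19:58818351-58819619), K held 11.6, 13.5, 10.8 and 15.2 CPM against 17.9, 16.9, 16.7 and 20.7 CPM in WT, and the CK mice, at 12.7 to 15.8 CPM, overlapped K. K mouse 4, not K mouse 2, was the highest of K there. That peak was called in CK as well, with log2 fold changes of -0.49 (SE 0.10) in K and -0.39 (SE 0.09) in CK.

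Besides the Vti1a peak, 2 peaks were called higher in K. An Ablim1 intron peak (chr19:57261291-57262038) held 1.1, 1.1, 1.2 and 0.8 CPM in WT and 2.5, 1.3, 2.0 and 2.3 CPM in K (log2 fold change 0.94, SE 0.21), and its CK mice held 0.9 to 1.5 CPM. K mice 1, 3 and 4 were above all others, and K mouse 2 was inside the CK range. The promoter of Gpam, which encodes an acyltransferase at the start of triglyceride synthesis, held 27.8, 28.8, 24.0 and 27.7 CPM in WT, 39.3, 34.6, 31.8 and 31.8 CPM in K, and 34.9, 33.8, 35.1, 35.7 and 34.4 CPM in CK. There every K and CK mouse, with or without Y signal, was above every WT mouse, with log2 fold changes of 0.34 (SE 0.07) and 0.36 (SE 0.07). The Gpam promoter and 9 other peaks of the region had all K and all CK mice on the same side of all WT mice. The share of all peaks with this joint property is not given, so nothing is read from the count. Over all peaks, K alone did not overlap WT at 11.3% and CK alone at 13%.

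The spread among K mice followed the Y signal at a set of peaks that includes some of those above. Of the 22 peaks counted next, 7 are among the 10 called in K. These include the Vti1a and Zfp950 peaks, by which the region was chosen. At 22 of 237 peaks (9.28%), K mice 1, 3 and 4 were all outside the range of the other 14 mice, below it at 19 and above it at 3, while 0.545% of all peaks and 26 of 2002 peaks of the rest of chromosome 19 had this property. K mouse 2 lay inside the WT range at 12 of the 22 peaks, below it at 7 and above it at 3. Of the other genotypes with Y signal, the 2 CK mice were outside the range of all others at 3 peaks (1.27%, against 2.08% of all peaks), the 2 C mice at 5 (2.11%, against 1.5%) and the 2 WT mice at 1 (0.422%, against 2.09%). Without Y signal, the 2 WT mice were outside the range of all others at 13 peaks (5.49%, against 5.23%), the 2 C mice at 6 (2.53%, against 3.2%) and the 3 CK mice at 2 (0.844%, against 0.634%). K mouse 2 alone was outside the range of the other 16 at 31 peaks (13.1%, against 11.9%). Smaller sets stand apart more easily, so the shares are set against those over all peaks for the same mice. The sets were formed from Y signal after the data had been seen, and these shares carry no test.

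**Figure D2:**
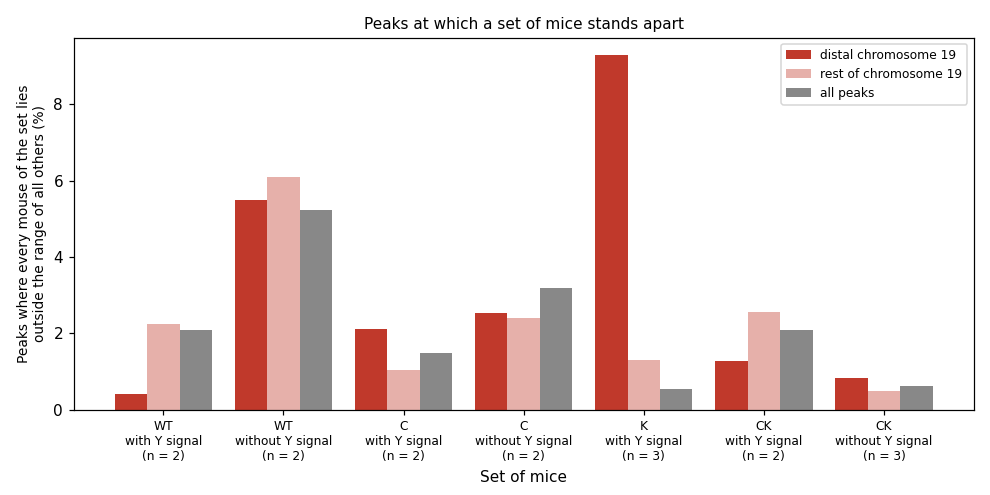
Percentage of peaks (vertical axis) at which every mouse of a set (horizontal axis, with the number of mice) lies outside the range of all other mice, for the 237 distal chromosome 19 peaks, the rest of chromosome 19 and all peaks. The 3 K mice with Y signal reach 9.28% in the region, with the Vti1a and Zfp950 peaks counted, and 0.545% over all peaks.

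Of the 19 peaks where these K mice were low, the fold changes against the 2 WT mice with Y signal ran from -1.87 to -0.20 on the log2 scale, with a median of -0.67. Of the 22 peaks, 7 started between 55483700 and 57393158 and 15 at or past 58468648, and the 28 peaks that start in the window from 56 Mb held 0. By class, 10 of the 22 were among the 61 peaks between genes, 6 among the 108 in introns, 4 among the 26 over exons and 2 among the 42 over a TSS. The shares over all peaks of each class are not given, so nothing is read from these counts. The 2 TSS peaks were an internal Ablim1 promoter, at 27.7 ± 0.88 CPM in WT (SD, n = 4) and 19.5, 28.7, 17.5 and 18.3 CPM in the K mice, and an internal Hspa12a promoter, at 20.1 ± 0.78 CPM in WT and 19 ± 4.8 CPM in K (SD, n = 4 each). At the Hspa12a promoter K mice 1, 3 and 4 held 17.2, 16.8 and 15.7 CPM and K mouse 2 held 26.2 CPM, the highest of all 17. The 22 peaks had a median length of 1023 bp and a median WT level of 9.89 CPM, against 846 bp and 2.96 CPM over all 237. Counting error is smaller at high peaks, and its part in which peaks met the rule was not tested.

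Mice with and without Y signal were also compared separately, in 1 edgeR fit with a coefficient for each genotype and Y signal. With Y signal, K against WT had 8 peaks of the region called (0.13% of all peaks), CK against K had 4 (0.00611%), and CK against WT and C against WT each had 0 (0.298% and 0.0122% of all peaks). Without Y signal, K mouse 2 was the lone K library, and its spread was taken to be that of the other sets. There 1 peak was called in K against WT (0.0214% of all peaks), the Ablim1 peak, and 1 in CK against K (0.00458%), while CK against WT had 2 (3.84%) and C against WT 0 (0.0229%). The K and CK contrasts chose the region and the sets were formed after the data had been seen, so nothing is read from these K and CK counts. K mouse 2 was the 1 K mouse without Y signal, so a difference between K mouse 2 and the others cannot be told apart from one between mice with and without Y signal.

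Library by library, the root mean square (RMS) difference from the WT mean over the region, on log2 CPM, was 0.656, 0.527, 0.594 and 0.543 for K mice 1 to 4 and 0.310 to 0.431 for the CK mice. Without the Ablim1, Vti1a and Zfp950 peaks it was 0.519, 0.345, 0.449 and 0.385 for the K mice and 0.310 to 0.430 for the CK mice, so that K mice 2 and 4 then lay inside the CK range. K mouse 2 was the K mouse nearest to the WT mean at 82 of 237 peaks (34.6%), against 23.9% of all peaks and 26.5% of the rest of chromosome 19. The differences of K mice 1, 3 and 4 from the WT mean correlated with one another across the 237 peaks at r of 0.79 to 0.83, and with those of K mouse 2 at 0.37 to 0.40. Without the 3 peaks these ranges were 0.65 to 0.71 and 0.24 to 0.33, over the rest of chromosome 19 they were 0.60 to 0.66 and 0.28 to 0.38, and over all peaks 0.48 to 0.51 and 0.31 to 0.45. CK mouse 1 correlated with K mice 1, 3 and 4 at 0.61 to 0.66 over the rest of chromosome 19 and at 0.46 to 0.57 over all peaks. Over the region without the 3 peaks it did so at 0.30 to 0.38. There the ranges were 0.31 to 0.40 for CK mouse 2, 0.25 to 0.42 for CK mouse 3, 0.34 to 0.47 for CK mouse 4 and 0.13 to 0.27 for CK mouse 5. All of these differences share the same WT mean.

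**Figure D3:**
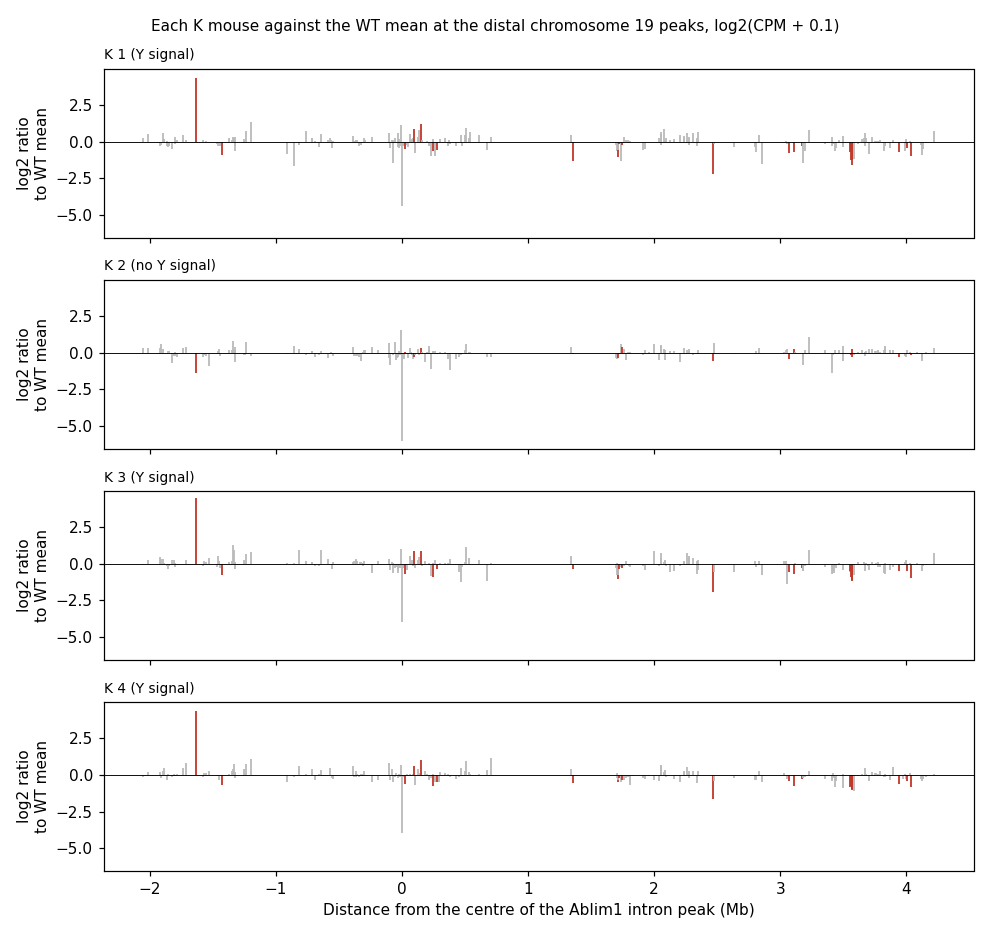
Log2 ratio of each K mouse to the WT mean, on log2(CPM + 0.1) (vertical axes), at the 237 peaks by distance in Mb from the Ablim1 intron peak (horizontal axis), with the 22 peaks where K mice 1, 3 and 4 lie outside the range of all others in red. The drop at distance 0 is present in all 4 panels, and most red lines are longer in K mice 1, 3 and 4 than in K mouse 2. At the Vti1a peak, the tallest red line, K mouse 2 points the opposite way because it has 0 fragments.

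In windows of 500 kb, the mean absolute K log2 fold change was highest at 59500001 to 60000000, at 0.509 over 7 peaks (0.294 in CK and 0.239 in C), a window led by the gene desert peak. The others of that window included the promoter of Rab11fip2, a Rab11 effector of endosome recycling, which held 40.1 ± 3.6 CPM in WT and 49.7 ± 4.5 CPM in K (SD, n = 4 each) and was not called. The remaining 5 peaks lay below 6 CPM in every library. The lowest window, at 56500001 to 57000000, had 0.114 over 19 peaks. The medians of these windows were 0.311 and 0.0572.

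The K mice with Y signal also stood out elsewhere on the chromosome, together with a CK mouse. In the 1 Mb window from 44 Mb (63 peaks), the RMS difference was 0.950, 0.897 and 0.963 for K mice 1, 3 and 4 and 0.946 for CK mouse 1, while K mouse 2 was at 0.267. From 47 Mb (84 peaks) the values were 0.712, 0.647, 0.661 and 0.641, with 0.336 for K mouse 2. In the window from 55 Mb (39 peaks), which holds the Vti1a peak, CK mouse 1 was at 0.410 and K mice 1, 3 and 4 were at 0.802, 0.814 and 0.785. In its second 500 kb, without the Vti1a peak, CK mouse 1 was at 0.496 and those K mice were at 0.449, 0.491 and 0.410. CK mouse 1 was also below the 3 K mice in the windows from 57 and 61 Mb, which hold the Ablim1 and Zfp950 peaks. From 57500001 to 58000000, without the Ablim1 peak, CK mouse 1 was at 0.464 and those K mice were at 0.487, 0.656 and 0.508. The window from 61 Mb was not computed without the Zfp950 peak. CK mouse 1 lay among those K mice in the windows from 56, 58, 59 and 60 Mb. What part the 3 peaks have in these differences was not tested. Among 455 windows of 5 Mb over the genome with at least 30 peaks, those from 60 and 55 Mb on chromosome 19 ranked first and second by the share of peaks where K mice 1, 3 and 4 stood apart, with 16.4% of 61 peaks and 6.82% of 176. The window from 45 Mb of the same chromosome was the fourth, with 4.89% of 225. The region was picked for K differences, so the ranks are a description.

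**Figure D4:**
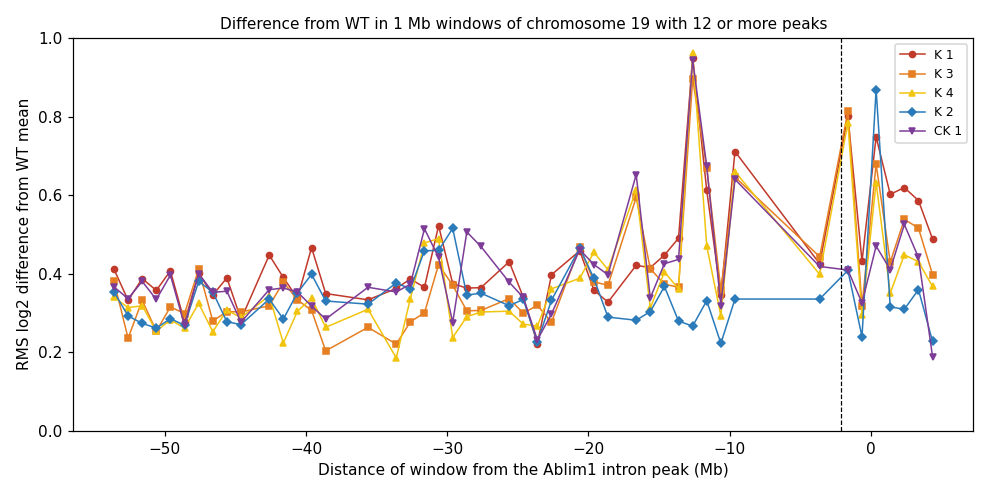
RMS log2 difference from the WT mean (vertical axis) in 1 Mb windows of chromosome 19 with 12 or more peaks, by distance in Mb from the Ablim1 intron peak (horizontal axis), for the 4 K mice and CK mouse 1; lines only join the points and the dashed line is the boundary of the region. K mice 1, 3 and 4 and CK mouse 1 peak together near 0.95 before the boundary. Past it CK mouse 1 is below these K mice in the windows from 55, 57 and 61 Mb and lies among them in the other 4.

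C against WT, which the choice of region did not use, had 0 of 237 peaks called by edgeR (0.16% of all peaks) and 0 by DESeq2 (0.275% of all peaks). At an unadjusted p under 0.05 there were 13 (5.49%, against 8.9% of all peaks) with edgeR. With DESeq2 there were 7, for which the share over all peaks is not given. All 4 C mice were outside the WT range on 1 side at 5 peaks (5.66% of all peaks had this). The lowest p was at a peak 6654 bp upstream of Afap1l2, which encodes an adaptor of Src-family signalling (chr19:57014882-57015142). It held 2.7, 2.7, 2.9 and 2.4 CPM in WT and 1.1, 1.4, 1.8 and 1.5 CPM in C, with no overlap between the groups. Its log2 fold change was -0.86 (SE 0.18, adjusted p = 0.0284, edgeR quasi-likelihood test), which missed the threshold of 0.01. In K it held 1.9, 1.4, 1.9 and 2.1 CPM and in CK 1.0, 1.8, 1.8, 1.6 and 1.7 CPM, so that every mutant mouse was below every WT mouse, and it was called in CK (log2 fold change -0.73).

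The 3 peaks that set the choice of region did not pass the test in C. The Ablim1 peak was higher in all 4 C mice than in any WT mouse, by 0.62 on the log2 scale (SE 0.24, adjusted p = 0.399, edgeR). At the Zfp950 peak the C log2 fold change was -0.02 (SE 0.11, adjusted p = 0.976, edgeR), and at the Vti1a peak both groups held at most 6 fragments in each library.

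The promoters of the region were described through 38 genes listed by role, of which 29 had a peak over a TSS, in 34 peaks. Of these 34, 0 were called in C by edgeR, 1 in K (higher) and 5 in CK (all higher). The C call rate of all peaks was 0.16%, and the shares called higher over all peaks were 0.647% in K and 3.54% in CK. The list was drawn up with results of these data known and supports nothing.

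Of the lipid genes, Gpam was called in both K and CK, as given above, and Acsl5, a ligase that activates fatty acids, held 41.0 ± 2.7 CPM in WT and 41.0 ± 0.76 CPM in K. The membrane traffic list had 1 peak called in CK, the promoter of Pdzd8, which encodes a lipid transfer protein at contacts of the endoplasmic reticulum. It held 63.7, 63.4, 57.6 and 54.0 CPM in WT, 77.4, 73.1, 67.6 and 66.4 CPM in K, and 76.9, 63.2, 63.8, 76.2 and 76.6 CPM in CK. K lay above all WT mice and CK overlapped them, with log2 fold changes of 0.25 in K and 0.26 in CK. The Vti1a and Zdhhc6 genes share 1 promoter peak, which held 47.8 ± 2.9 CPM in WT and 51.4 ± 5.1 CPM in K (SD, n = 4 each).

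Of the receptor genes, 2 promoters were called in CK. Adrb1, the beta-1 adrenergic receptor gene, held 8.1, 9.2, 7.2 and 7.0 CPM in WT, 10.2, 10.4, 8.6 and 11.7 CPM in K and 12.3, 9.0, 9.4, 11.7 and 12.4 CPM in CK. Gfra1, a co-receptor gene for glial cell line-derived neurotrophic factor, held 6.7, 6.8, 5.2 and 3.9 CPM in WT, 7.7, 7.2, 8.2 and 7.3 CPM in K and 12.2, 12.3, 11.8, 8.5 and 7.1 CPM in CK. At Gfra1 all K and all CK mice were above all WT mice, with log2 fold changes of 0.42 and 0.88, and CK mice 1 to 3 were the highest 3 of all. At Adrb1 the groups overlapped slightly, with log2 fold changes of 0.38 and 0.47. The promoter of Grk5, a kinase that desensitizes such receptors, held 66.4 ± 1.3 CPM in WT and 70.4 ± 1.6 CPM in K and was not called.

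The promoter of Atrnl1, an attractin-like gene, was the fifth of those called in CK. It held 45.1, 44.8, 38.4 and 40.1 CPM in WT, 58.2, 48.8, 45.1 and 49.5 CPM in K and 56.8, 48.0, 48.6, 51.9 and 50.6 CPM in CK, with log2 fold changes of 0.26 and 0.28. None of the 6 peaks over promoters of cell death, DNA repair and redox genes was called in any genotype against WT by edgeR. Tcf7l2, a transcription factor of the Wnt pathway, held 27.5 ± 2.4 CPM in WT and 30.4 ± 1.4 CPM in K, and Eif3a, a translation initiation factor gene, 59.2 ± 3.4 CPM and 64.4 ± 3.7 CPM. Neither was called. Within Ablim1, an exon peak 1663 bp from a TSS (chr19:57131334-57133014) was called lower in CK, at 54.1, 51.5, 53.3, 50.8 and 47.3 CPM against 70.0, 59.1, 60.3 and 58.9 CPM in WT (log2 fold change -0.27, SE 0.07). K mice held 52.3, 46.7, 56.5 and 57.1 CPM there (log2 fold change -0.22), so that this peak did not set K apart from CK.

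Of the 237 peaks, 29 had all 4 K mice outside the WT range on 1 side (11.3% of all peaks had this), and 26 had all 5 CK mice so (13% of all peaks). At 3 peaks, or 1.27%, against 1.07% of all peaks, K was outside and the CK median inside the WT range. These were the Zfp950 peak, an Hspa12a exon peak (chr19:58825229-58825932) and an intron peak of a noncoding transcript, which starts at 60611652. At the Hspa12a peak WT held 2.6, 2.1, 1.7 and 1.8 CPM, K 0.9, 1.6, 0.9 and 1.4 CPM, and CK 1.8 to 2.4 CPM. The third held between 0.6 and 1.0 CPM in K, and 1.0 to 2.0 CPM in WT. The Ablim1 peak was not among them, because the CK median, 10.9 CPM, was above the WT range, and the Vti1a peak was not, because K mouse 2 was not above it.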

How the data were processed

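ATAC-seq libraries of sorted GC B cells from 17 mice were analysed as the raw fragment counts per consensus peak that the authors deposited. Reads had been put on mm10 by the authors in an nf-core workflow, and featureCounts had assigned fragments to peaks, letting a fragment count for more than 1 peak. CB and CC libraries were not analysed here. All 65483 peaks were fitted together with edgeR 4.0.16 in R 4.3.3 (TMM, 1 coefficient per genotype, quasi-likelihood F test, Benjamini-Hochberg, threshold 0.01, summed count of at least 10), and DESeq2 1.42.0 was an alternative. CPM used TMM-scaled library sizes, and log2 CPM a prior count of 2. The script was tested on simulated data. Peaks were annotated with GENCODE M21, and the GRCm38 sequence was read from RefSeq. Libraries of 1 genotype differed by more than sampling noise (chi-square per peak 1.48 to 3.94), with r of 0.979 to 0.989. Counting error is small at high peaks and large at those below 1 CPM.

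The region, gene lists and tests were chosen with earlier results of these data known. Named peaks were the leading K change at Ablim1, Vti1a and Zfp950, all peaks called, up to 10 with K outside and the CK median inside the WT range, TSS peaks of listed genes, those at the boundary, those most like the Ablim1 peak, and those of the top 500 kb window. Alternatives were other normalizations and filters, thresholds, a replicate block, fits of 2 genotypes, the Y signal as covariate and leaving out each library. Fits within libraries with and without Y signal were chosen after seeing the data. The values of 1 listed gene are not reported here.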

Additional observations from a re-analysis of the deposited data

Results flagged for a closer look

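Of 64 genotype groups checked at 16 peaks, 6 had a mouse far from the others of its genotype, as a share of the group's range. Chance gives about 1 in 20 in groups that were not selected, but these peaks were picked by their values, so that rate is no reference here. K mouse 2 was the lone mouse at the Vti1a peak (0.983 of the K range) and at the Zfp950 peak (0.849). At the Ablim1 peak WT mouse 4 was low (0.884), and at the Ablim1 exon peak at 57131334 WT mouse 1 was high (0.868). CK mouse 2 was low at the Vti1a peak (0.772), where all CK mice held 5 fragments or fewer, and CK mouse 1 was low at the peak upstream of Afap1l2 (0.743). In 3 cases CK differed from K under the test of that difference across all peaks, by -4.12 at the Vti1a peak, 5.32 at the Ablim1 peak and 0.72 at the Zfp950 peak on the log2 scale. The region was chosen for those 3 differences.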

How the results depend on the processing

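C against WT had 0 peaks called under every alternative but an adjusted p of 0.05, with 1. The K count of 10 became 24 and the CK count of 8 became 26 at an adjusted p of 0.05, and 6 and 2 with a log2 fold change past log2(1.5). CK against K, with 3, had 1 when only the 2 genotypes were fitted. Within libraries with Y signal CK had 0 (K 8, CK against K 4), and within those without it K had 1, CK 2 and CK against K 1. At the Vti1a peak the K log2 fold change turned to -5.04 without Y signal, where K mouse 2 had 0 fragments, so that this fitted value depends on the prior count. Leaving out each mouse gave 0 to 0 calls in C, 3 to 16 in K, 2 to 10 in CK, and 1 to 8 in CK against K. For K the count was 16 without K mouse 2, 3 without WT mouse 4, 4 without K mouse 1, and 6 without WT mouse 3 or K mouse 3. For CK it was 2 without WT mouse 4 or CK mouse 4, 3 without WT mouse 3, 4 without CK mouse 1 and 5 without WT mouse 1. For CK against K it was 8 without K mouse 2 and 1 without K mouse 1, CK mouse 2 or CK mouse 3. The 3 peaks with K outside and the CK median inside the WT range became 6 with total counts, 1 when every CK mouse had to be inside, and 3 to 22 when leaving out a mouse, with 22 without K mouse 2, 8 without K mouse 4, 7 without K mouse 3, CK mouse 2 or CK mouse 3, 6 without WT mouse 2 or CK mouse 1, and 5 without WT mouse 4 or CK mouse 5. DESeq2 called 13 in K (1 higher and 12 lower, 2.66% of all peaks), of which 8 were among the 10, and 3 in CK against K (0.058% of all peaks), all higher, of which 2 were among the 3. The Vti1a peak was thus not called in CK against K by DESeq2, nor with filterByExpr, which left 2. With filterByExpr the Vti1a peak had no value, so it was not tested there. DESeq2 gave no adjusted p to 54 peaks of the region in K against WT and 80 in CK against K. In CK against WT this held for 24, and in C against WT for 0. Peaks without an adjusted p could not be called. The Vti1a peak had no adjusted p from DESeq2 in K against WT. Whether it had an adjusted p in CK against K is not given. With a replicate block K had 17, CK 20, CK against K 4 and C 0. Of 24 pairs of same-numbered mice of different genotypes, 12 had deviations that correlated over 0.1 (range -0.093 to 0.22). The same r for mice of different numbers is not given, so these values do not settle whether the numbers pair the mice. The main fit took the mice as unpaired. Shares over all peaks are not given for most of these counts, and smaller sets of mice stand apart more easily at any peak. The changes in the K and CK counts are therefore a description from which nothing is read. Apart from the peaks left without a test, the causes of these changes were not tested.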
